A study of Mus musculus with 12 samples.

Results

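The genes described here are the Hox genes of the 4 mouse clusters, Hoxa, Hoxb, Hoxc and Hoxd. They were chosen among the non-control probes as those whose gene name in the scanner files is Hox followed by a cluster letter and a number, and 48 of 41174 probes and 37 of 27670 gene or transcript names are described. Of these, Hoxa had 10 genes and 13 probes, Hoxb 10 genes and 14 probes, Hoxc 8 genes and 9 probes, and Hoxd 9 genes and 12 probes. A gene was tested if a probe was well above background, by the scanner software's own flag, on both arrays of at least 1 group, and 25 of the 37 genes (31 probes) met this.

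The arrays hold RNA of J1, a mouse embryonic stem cell line, infected with a lentivirus that carries a short hairpin RNA against Ino80 (shIno80) or a non-targeting one (shNT), with RNA taken at day 2, 4 or 6 of infection. Each of the 6 groups had 2 single-colour arrays: shIno80 at day 2, 4 and 6, and shNT at day 2, 4 and 6. All groups share the J1 line, the lentiviral infection and, per the labels' protocols, M15 medium during it. The labels name 1 agent per arm and give no hairpin sequence. Ino80 encodes the ATPase subunit after which the INO80 chromatin remodelling complex is named.

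Hox genes encode homeodomain transcription factors that give cells of the embryo their position along the head-to-tail axis. Genes at the same place in the different clusters are paralogues and carry the same number, from 1 at the anterior end to 13 at the posterior end, and in the embryo anterior genes come on before posterior ones. In embryonic stem cells the clusters are known to be covered by Polycomb repressive complexes and to be nearly silent, and retinoic acid and the Cdx factors are known activators of anterior and central genes.

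Signals are given below as a percent of the 75th percentile of all non-control probes on the same array, and differences as log2 of shIno80 over shNT. Signals of different probes were not set against each other, since probes differ in brightness for the same amount of RNA. The lowest probe flagged as well above background lay between 1.35% and 1.98% on the 12 arrays, so values near or under this are a limit and not a level. Between 61.8% and 69.2% of all probes were well above background on an array.

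The 2 deposited records of these samples disagree. The columns of the value table and the attached scanner files tie 6 of the 12 arrays to different samples, exchanging arrays of shIno80 and shNT on each slide. Results follow the value table, under which arrays of a group correlated at 0.9905 to 0.9941. With the scanner files as attached, the correlations within groups were 0.9476 to 0.9869 and no Hox gene passed the test on any day (1, 0 and 0 genes at an unadjusted p under 0.05 on days 2, 4 and 6, limma). Ino80 was measured at 148% and 181% in shIno80 and 661% and 635% in shNT at day 2. It was at 81.5% and 109% in shIno80 and 480% and 446% in shNT at day 4, and at 85.5% and 99.4% in shIno80 and 370% and 415% in shNT at day 6. These signals were known when the records were chosen between, so they do not check the labels independently. The 11 tested markers of pluripotent cells were well above background on both arrays of all 6 groups.

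Most Hox genes had low signals. By their best probe, 12 of the 37 genes were well above background on all 12 arrays, 20 on some arrays and 5 on none. The heat map of all probes shows this pattern: Hoxb1, Hoxb5, Hoxc6, Hoxd11 and Hoxd12 passed background on no array, while Hoxa7, Hoxc4 and Hoxc5 were well above background on every array. The 12 genes that could not be tested were Hoxa2, Hoxa5, Hoxa10, Hoxb1, Hoxb5, Hoxb8, Hoxc6, Hoxc8, Hoxd3, Hoxd4, Hoxd11 and Hoxd12. Their 14 probes gave 168 values, of which 13, from 7 genes, were well above background. Hoxd3 stood at 11% on 1 shIno80 array at day 6 and at 1.25% on the other, and Hoxc8 at 6.3% on 1 shNT array at day 6 and at 0.475% on the other, so neither signal was shared by the arrays of its group.

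**Figure D1:**
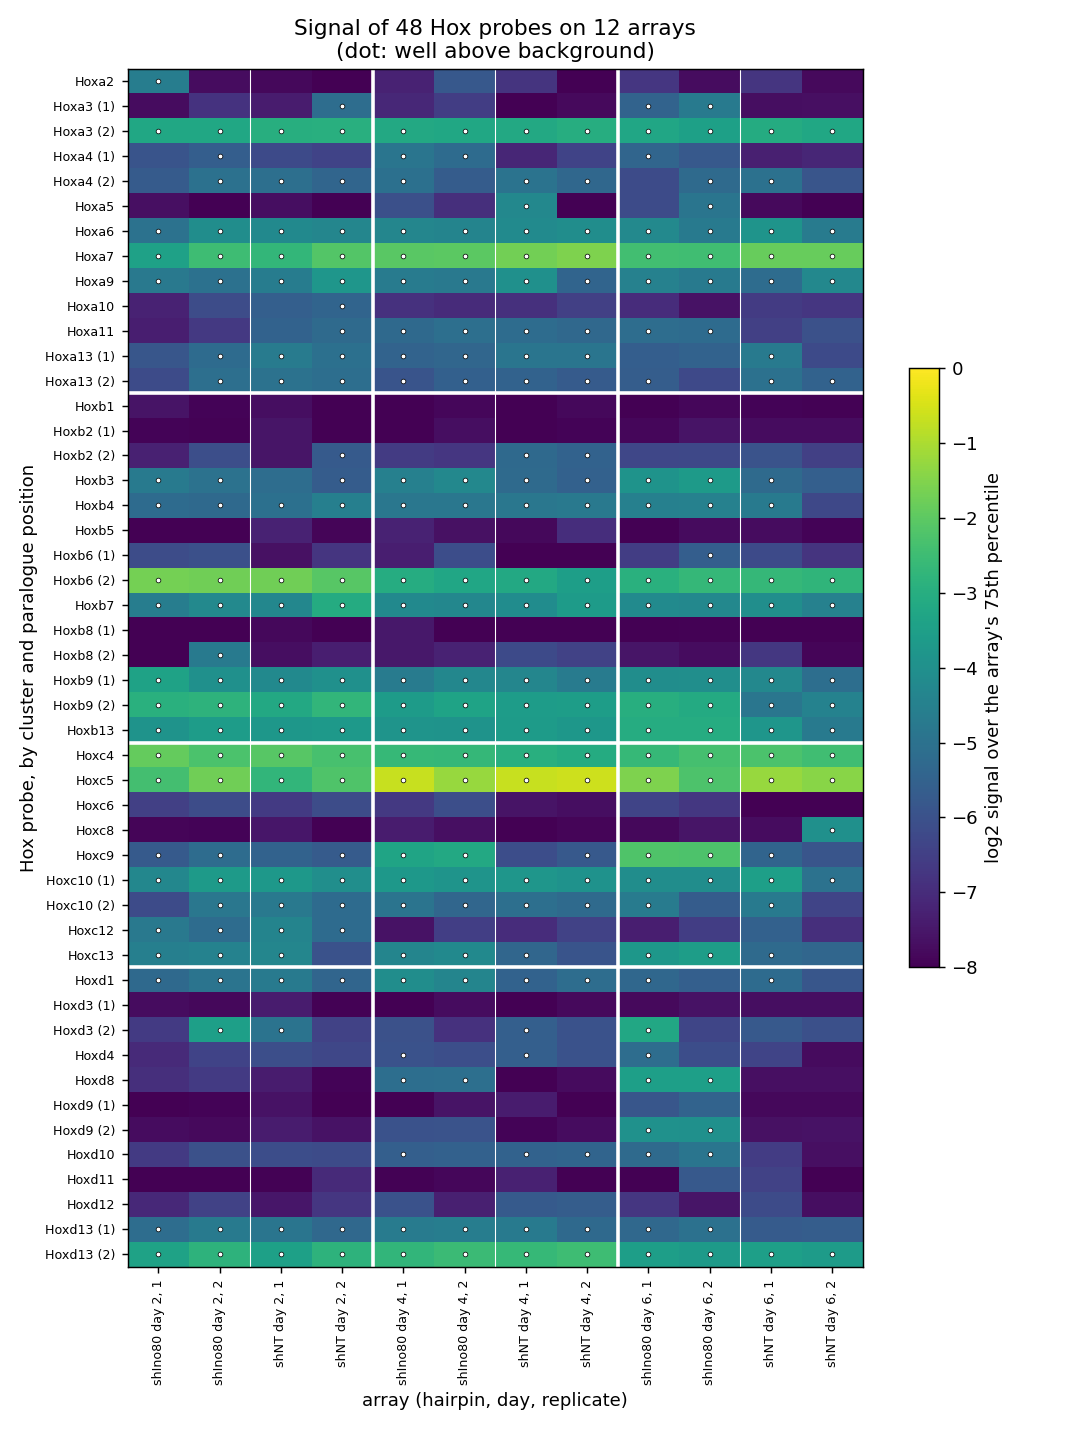
Signal of the 48 Hox probes (rows, by cluster and paralogue position; numbers in brackets separate probes of the same gene) on the 12 arrays (columns, by day, shIno80 left of shNT), as log2 over the array's 75th percentile. A dot marks a probe well above background; the arrays held between 15 dots (shNT day 6, replicate 2) and 29 dots (shIno80 day 6, replicate 1).

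At day 2 few Hox genes differed between the arms. At day 4, 6 of the 25 tested genes were higher in shIno80 than in shNT (20.9% of all tested genes were), namely Hoxb3, Hoxc9, Hoxc13, Hoxd1, Hoxd8 and Hoxd9. At day 6, 9 were higher (21.0% of all tested genes were), namely Hoxa11, Hoxb3, Hoxb9, Hoxb13, Hoxc9, Hoxc13, Hoxd8, Hoxd9 and Hoxd10. None of the 25 was lower at day 4 or day 6, where 1 gene (Hoxb2) and 0 genes were lower at an unadjusted p under 0.05 (limma). Among them Hoxd8, Hoxd9 and Hoxc9 differed most at day 6. With normexp background correction, whose fit differed widely between arrays, no Hox gene passed on any day (0, 0 and 0 genes at an unadjusted p under 0.05).

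In percent, 24% of the tested Hox genes were higher at day 4 and 36% at day 6, and 0% were lower on either day. Among all 19183 tested genes, 21.3% were lower at day 4 and 29.5% at day 6 beside the higher ones given above (limma, Benjamini-Hochberg adjusted p of at most 0.05). At day 2, 1 Hox gene was higher (Hoxd8, below background in both arms) and 1 lower (Hoxa11), against 6.29% higher and 6.21% lower among all genes. The median log2 difference of the 25 Hox genes was −0.08 at day 2, −0.02 at day 4 and 0.07 at day 6, beside 0.02, −0.05 and −0.14 over all genes. The 25 are not all Hox genes: 4 of them (Hoxc9, Hoxc13, Hoxd8 and Hoxd9) passed the filter only through shIno80 arrays and 2 (Hoxa4 and Hoxb2) only through shNT arrays, so that the filter itself favoured a difference in these.

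The genes that differed came from all 4 clusters. Over all tested genes, 20.9% were higher at day 4 and 21.0% at day 6. Of the 12 tested Hox genes at positions 9 to 13, 3 were higher at day 4 and 7 at day 6. Of the 9 at positions 4 to 8, only Hoxd8 was higher at day 4 and day 6. Of the 4 at positions 1 to 3, Hoxb3 and Hoxd1 were higher at day 4 and Hoxb3 at day 6. At position 9, the paralogues Hoxb9, Hoxc9 and Hoxd9 were higher at day 6 and Hoxa9 was not called; at position 13, Hoxb13 and Hoxc13 were higher and Hoxa13 and Hoxd13 were not called. Hoxc9, Hoxc13, Hoxd8 and Hoxd9 passed the filter only through shIno80 arrays, so that the filter favoured a difference in these. Whether positions or clusters differ from each other was not tested.

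**Figure D2:**
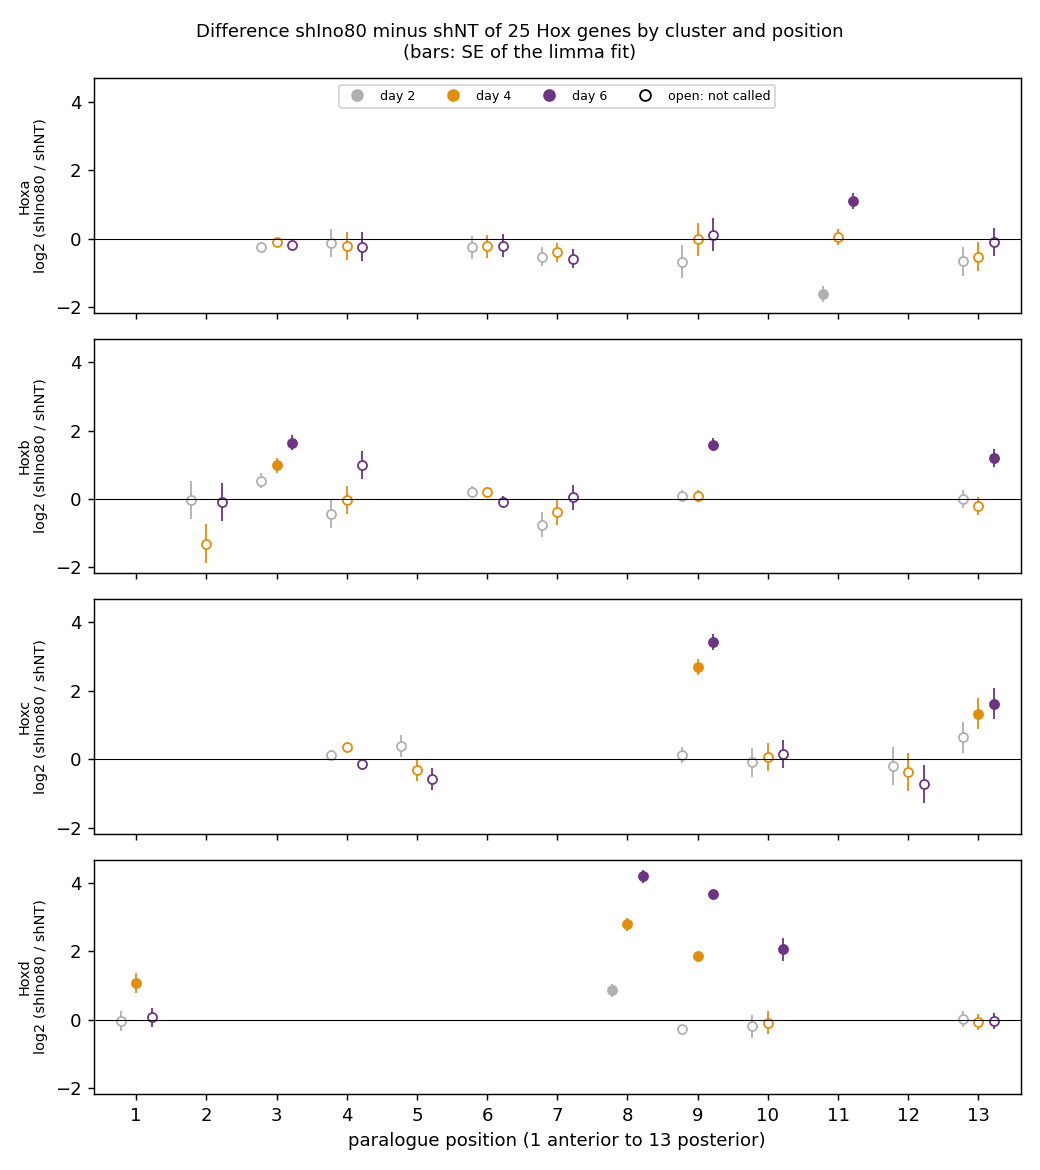
Log2 difference of shIno80 over shNT (vertical axis) for the 25 tested Hox genes by paralogue position (horizontal axis), 1 panel per cluster, at day 2, 4 and 6. Bars are the standard error of the limma fit and filled points passed the test; at day 6 Hoxd8, Hoxd9 and Hoxc9 lie highest and no filled point at day 4 or 6 lies under 0.

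The Hoxd genes at positions 8 to 10 lie next to each other, with the reported probes of Hoxd10, Hoxd9 and Hoxd8 at chr2:74537939-74537998, chr2:74543335-74543394 and chr2:74550680-74550739 on the plus strand of mm7, the build of the file's annotation. Since these neighbours were all higher at day 6, the 250 bases before their starts are shown (RefSeq, GRCm38.p6, plus strand, 5′ to 3′, at chr2:74704365-74704614, chr2:74697513-74697762 and chr2:74691641-74691890). Capitals mark matches on either strand to AGGTCA, the half-site of the retinoic acid receptors (TGACCT is its reverse strand), and to CCATNTT, the core of the YY1 site; YY1 is known as a partner of the INO80 complex. TTTATG, the core of the Cdx site, was searched too. The motifs do not overlap in these windows.
Hoxd8: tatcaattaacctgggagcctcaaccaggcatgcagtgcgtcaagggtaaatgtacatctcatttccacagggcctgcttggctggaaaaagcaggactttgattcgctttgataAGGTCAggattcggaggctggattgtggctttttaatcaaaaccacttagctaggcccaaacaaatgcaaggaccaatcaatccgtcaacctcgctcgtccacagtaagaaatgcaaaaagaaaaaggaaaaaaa
Hoxd9: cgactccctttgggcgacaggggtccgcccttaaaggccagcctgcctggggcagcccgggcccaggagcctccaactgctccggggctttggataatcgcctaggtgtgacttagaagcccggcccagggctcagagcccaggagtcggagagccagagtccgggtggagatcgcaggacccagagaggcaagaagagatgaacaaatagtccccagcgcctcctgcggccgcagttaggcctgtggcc
Hoxd10: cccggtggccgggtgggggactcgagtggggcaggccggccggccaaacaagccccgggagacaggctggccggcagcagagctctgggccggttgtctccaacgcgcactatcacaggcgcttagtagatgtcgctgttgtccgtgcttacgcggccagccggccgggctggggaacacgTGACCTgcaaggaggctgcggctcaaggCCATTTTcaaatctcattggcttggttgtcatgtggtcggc
The Hoxd8 window holds 1 half-site, the Hoxd10 window 1 half-site and 1 YY1 core, and the Hoxd9 window none of the motifs. Over 24 Hox promoters of 22 genes in the table, 6 held the half-site, 5 the Cdx core and 1 the YY1 core. Among all 32851 promoters of the same length, 14% held the half-site, 10.8% the Cdx core and 12.4% the YY1 core. The windows held 6, 13 and 20 CpG in the order printed; the median was 12.5 over the Hox promoters and 6 over all promoters. A match is a run of letters and not a bound site.

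Hoxd8, a central gene of its cluster, stood in shIno80 at 0.818% and 0.998% at day 2, at 2.91% and 2.93% at day 4, and at 8.96% and 9.0% at day 6. It stayed below background on all shNT arrays, with values of 0.602% and 0.411% at day 2, 0.39% and 0.455% at day 4, and 0.487% and 0.495% at day 6. The arms did not overlap on any day, and the signal passed background in shIno80 from day 4. The difference was at least 2-fold at day 4 (adjusted p = 1.80e-05) and at least 5.41-fold at day 6 (adjusted p = 2.05e-06, limma). The day 2 difference (adjusted p = 0.0208) was between values below background in both arms and was lost in 8 of 23 alternative settings.

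Hoxd9, its posterior neighbour, passed background at day 6 and not before. Its signal was below background in shIno80 at day 2 (0.466% and 0.45%) and at day 4 (1.59% and 1.6%) and reached 6.47% and 6.4% at day 6. In shNT it was 0.601% and 0.517% at day 2, 0.412% and 0.465% at day 4, and 0.501% and 0.508% at day 6. Only the shIno80 arrays of day 6 were well above background, at least 3.88-fold over shNT (adjusted p = 7.91e-07, limma). The day 4 difference passed the test (adjusted p = 1.10e-05), with both arms below background, and was lost with the deposited value table.

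Hoxd10, a posterior gene known for its part in hindlimb motor neurons and limbs, was measured in both arms at day 4. In shIno80 it was at 0.998% and 1.53% at day 2, 2.1% and 2.19% at day 4, and 2.63% and 3.4% at day 6. In shNT it was at 1.44% and 1.38% at day 2, 2.22% and 2.32% at day 4, and 1.04% and 0.491% at day 6. At day 4, where 3 of the 4 arrays were well above background, shIno80 lay just under shNT (log2 difference −0.08 ± 0.33 SE), and at day 6 it was at least 1.8-fold higher (adjusted p = 0.00111, limma). With the local background subtracted and 50 added, this call was lost. Its probe lies in the homeobox, printed here because this part of the gene resembles that of other Hox genes.
Hoxd10 probe: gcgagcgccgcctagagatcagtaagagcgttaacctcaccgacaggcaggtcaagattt

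Hoxd1, the anterior gene of the cluster, was higher only at day 4, at 5.86% and 4.88% in shIno80 and 2.24% and 2.84% in shNT (log2 difference 1.08 ± 0.29 SE, adjusted p = 0.0176, limma). At day 2 it was at 2.6% and 3.34% in shIno80 and 3.83% and 2.36% in shNT. At day 6 it was at 2.47% and 2.1% in shIno80 and 2.74% and 1.72% in shNT, with the arms overlapping. The call at day 4 was lost when either shIno80 replicate 1 or shNT replicate 1 of that day was left out.

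Hoxa11, a posterior gene known for limb and uterus development, was called in opposite directions at day 2 and day 6. At day 2 it was at 0.623% and 0.987% in shIno80 and 2.2% and 2.66% in shNT. At day 4 it was at 2.58% and 2.93% in shIno80 and 2.81% and 2.54% in shNT, and at day 6 at 2.82% and 2.75% in shIno80 and 1.11% and 1.53% in shNT. It was thus lower in shIno80 at day 2 (at least 1.58-fold, adjusted p = 0.00477), not called at day 4 and higher at day 6 (at least 1.68-fold, adjusted p = 0.00467, limma). All these values lay close to the detection limit, and with the local background subtracted and 50 added both calls were lost. At day 2 the only array well above background was shNT replicate 2. The day 2 call was also lost with the deposited value table and with the 4 arrays of day 2 fitted alone.

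Hoxb3, an anterior gene active in the hindbrain, was at 3.74% and 3.12% in shIno80 and 2.82% and 1.96% in shNT at day 2. It was at 4.38% and 5.13% in shIno80 and 2.65% and 2.19% in shNT at day 4, and at 6.68% and 8.08% in shIno80 and 2.63% and 2.1% in shNT at day 6. The signal rose with time in shIno80 (log2 change 1.10, adjusted p = 0.00327) while the change in shNT was 0.00 (adjusted p = 0.999). The difference between arms was 0.98 ± 0.22 SE at day 4 (adjusted p = 0.00678) and 1.64 ± 0.22 at day 6 (adjusted p = 3.63e-04, limma). At day 4 the call was lost with the local background subtracted and 50 added, and at days 2 and 6 1 of the 2 shNT arrays was below background. The file lists a transcript of Hoxd3 as well as one of Hoxb3 for this probe, so signal of Hoxd3 cannot be told apart here. Both probes of Hoxd3 itself were not testable.

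Hoxb9, a thoracic gene, parted at day 6, when its signal was low in shNT. It was at 13.3% and 14.2% in shIno80 and 11.1% and 15.1% in shNT at day 2, and at 8.23% and 9.79% in shIno80 and 8.42% and 8.61% in shNT at day 4. At day 6 it was at 12.5% and 11.5% in shIno80 and 3.47% and 4.6% in shNT. The arms separated at day 6, with a log2 difference of 1.59 ± 0.18 SE (adjusted p = 1.91e-04, limma). Between day 2 and day 6 the signal fell by 1.69 in shNT (adjusted p = 7.10e-04), while in shIno80 the change was −0.19 (adjusted p = 0.423).

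Hoxb13, the most posterior gene of its cluster, known from the tail bud and prostate, was at 6.74% and 8.41% in shIno80 and 7.27% and 7.94% in shNT at day 2. It was at 6.83% and 6.69% in shIno80 and 8.2% and 7.37% in shNT at day 4, and at 12% on both shIno80 arrays and 7.22% and 3.75% on the shNT arrays at day 6. At day 4 the shIno80 arrays lay just under those of shNT (log2 difference −0.20 ± 0.26 SE, adjusted p = 0.584). The test was passed at day 6 only, with a log2 difference of 1.20 ± 0.26 (adjusted p = 0.00548, limma), and the shNT arrays of that day stood apart from each other. The call was lost when the 4 arrays of day 6 were fitted alone. A probe each of 3 genes of position 13 lies in the homeobox, of which those of Hoxa13 and Hoxd13 are not the reported ones. They overlap when aligned and are printed to show how close the paralogues are at the probed place. Capitals mark the bases that are the same in all of them.
Hoxb13 probe: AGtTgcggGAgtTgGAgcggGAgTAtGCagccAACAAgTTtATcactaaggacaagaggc
Hoxa13 probe: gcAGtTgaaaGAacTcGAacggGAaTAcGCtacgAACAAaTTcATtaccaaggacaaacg
Hoxd13 probe: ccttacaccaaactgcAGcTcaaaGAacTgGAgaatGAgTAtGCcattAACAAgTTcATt
They lie at chr11:96304167-96304226, chr6:52222385-52222444 (minus strand) and chr2:74513664-74513723 of mm7. Of 44 bases that all of them cover, 23 were identical. Hoxb13 and Hoxa13 shared 40 of 58 bases, Hoxb13 and Hoxd13 28 of 44, and Hoxa13 and Hoxd13 33 of 46. Of these probes only that of Hoxb13 belonged to a gene that was called.

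Hoxc9, a thoracic gene, was higher in shIno80 from day 4. It was at 1.88% and 2.77% in shIno80 and 2.26% and 1.93% in shNT at day 2. At day 4 it was at 9.94% and 11.1% in shIno80 and 1.46% and 1.84% in shNT, and at day 6 at 21.6% and 21.4% in shIno80 and 2.36% and 1.68% in shNT. The shNT values stayed at the detection limit, where 1 of the 2 arrays was well above background on each day. The log2 difference was 2.69 ± 0.23 SE at day 4 (adjusted p = 5.17e-05) and 3.43 ± 0.23 at day 6 (adjusted p = 1.18e-05, limma).

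Hoxc13, the posterior gene known for hair and nail development, was at 4.26% and 4.58% in shIno80 and 4.99% and 1.59% in shNT at day 2. It was at 4.84% and 5.41% in shIno80 and 2.45% and 1.66% in shNT at day 4, and at 7.3% and 8.61% in shIno80 and 2.67% and 2.46% in shNT at day 6. The arms overlapped at day 2 and not later. The shNT array of replicate 2 was below background on each day, so the differences rest partly on values at the limit. The difference was 1.34 ± 0.45 SE at day 4 (adjusted p = 0.0405) and 1.63 ± 0.45 at day 6 (adjusted p = 0.0155, limma). The day 4 call was lost or turned in 13 of 23 alternative settings, and the day 6 call was lost without shIno80 replicate 2 or shNT replicate 2 of that day.

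**Figure D3:**
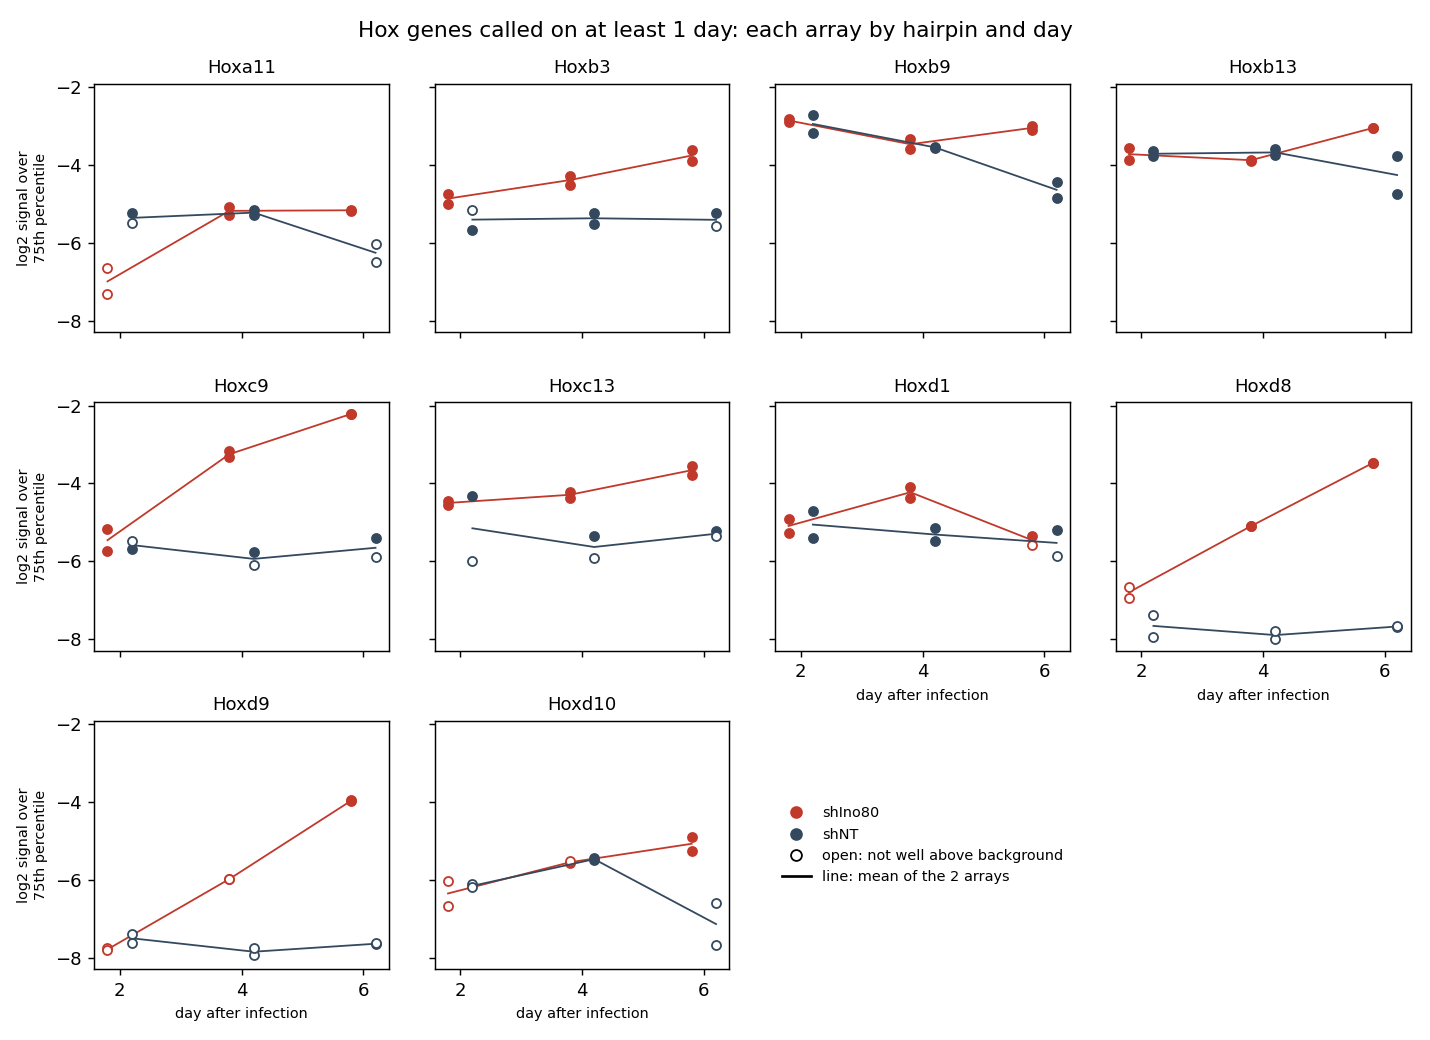
Signal of the 10 Hox genes that passed the test on at least 1 day (log2 over the array's 75th percentile, vertical axis) by day after infection (horizontal axis), each point an array and each line the mean of 2 arrays, shIno80 left of shNT. Hoxd8, Hoxd9 and Hoxc9 part upward from day 4, while for Hoxb9, Hoxb13 and Hoxd10 the shNT points of day 6 lie under those of day 4.

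Of the 10 genes called on at least 1 day, 5 were higher on both day 4 and day 6, 4 at day 6 and not at day 4, and 1 (Hoxd1) at day 4 and not at day 6. Tested directly, the signed log2 difference of shIno80 over shNT rose from day 2 to day 4 in 4 of the 25 genes, from day 4 to day 6 in 4 and from day 2 to day 6 in 8, and fell in none. For Hoxa11 the arms came together between day 2 (−1.63) and day 4 (0.04), so a rise of the signed difference is not always a wider gap. Among all genes it rose in 8.17%, 1.55% and 11.3% and fell in 7.15%, 2.25% and 15.8% (limma). At an unadjusted p under 0.05, it fell in 0, 1 (Hoxd1) and 0 Hox genes. These comparisons share arrays.

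Within each arm, time and slide cannot be told apart, since each of the 3 slides held the arrays of 1 day. Between day 2 and day 6, 6 Hox genes rose and 2 fell in shIno80 (19.8% and 29.1% of all genes), and 1 rose and 3 fell in shNT (11.7% and 11.1% of all genes, limma). Those that rose in shIno80 were Hoxa11, Hoxb3, Hoxc9, Hoxd8, Hoxd9 and Hoxd10. In shNT, Hoxc5 rose, and Hoxa11, Hoxb6 and Hoxb9 fell.

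Hoxb6, a central gene, fell with time in both arms and did not differ between them by the test. It was at 31.7% and 29.8% in shIno80 and 30.3% and 23.5% in shNT at day 2, at 12% and 10.4% in shIno80 and 11% and 8.77% in shNT at day 4, and at 13.3% and 15.7% in shIno80 and 15.9% and 14.8% in shNT at day 6. From day 2 to day 6 it fell by 1.09 in shIno80 (adjusted p = 9.33e-04) and fell by 0.80 in shNT (adjusted p = 0.0119, limma) on the log2 scale. The arms overlapped on every day. The other Hoxb6 probe was well above background on only 1 array (shIno80 day 6, at 2.07%) and was not kept. These levels and the fall thus rest on 1 probe.

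Hoxc12, a posterior gene, was well above background on all arrays of day 2 and on none later. It was at 3.64% and 2.79% in shIno80 and 4.8% and 2.75% in shNT at day 2, at 0.517% and 1.08% in shIno80 and 0.783% and 1.17% in shNT at day 4, and at 0.626% and 1.07% in shIno80 and 2.17% and 0.831% in shNT at day 6. The fall in shIno80 was at least 1.9-fold (adjusted p = 0.0177, limma), and the shNT change missed the threshold (adjusted p = 0.0979).

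The other 13 tested genes passed neither on any day nor over time in shIno80. Their log2 differences ran from −0.75 (Hoxb7) to 0.40 (Hoxc5) at day 2, from −1.30 (Hoxb2) to 0.35 (Hoxc4) at day 4 and from −0.59 (Hoxa7) to 1.00 (Hoxb4) at day 6, with standard errors of 0.11 to 0.56. The lowest adjusted p was 0.0757, at day 6. Values are given for Hoxc5, Hoxa7, Hoxc4 and Hoxd13, whose probes were the brightest of the 13, which does not order the genes by their RNA. Hoxc5, a central gene, reached 63.4% and 42.1% in shIno80 and 62.5% and 65% in shNT at day 4, and 33.9% and 21.1% in shIno80 and 42.3% and 37.4% in shNT at day 6 (log2 difference −0.57 ± 0.32 SE, adjusted p = 0.175, limma). Hoxa7 was at 18.6% and 18.2% in shIno80 and 27.7% and 27.4% in shNT at day 6 (−0.59 ± 0.28, adjusted p = 0.122). Hoxc4 was at 16.1% and 19.5% in shIno80 and 20.8% and 18.2% in shNT at day 6, and Hoxd13, the most posterior gene of its cluster, at 8.64% and 8.05% in shIno80 and 9.03% and 8.11% in shNT. The arms overlapped for Hoxc4 and Hoxd13 and not for Hoxc5 and Hoxa7.

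A second probe was kept for 6 genes beside the reported one, which was the brightest kept probe. For Hoxa13, Hoxc10 and Hoxd13 neither probe was called on any day, whereas for Hoxa3, Hoxa4 and Hoxb9 the calls of the probes differed. Among single probes, 20.4% were higher at day 4 and 21.1% at day 6. The dimmer Hoxa4 probe was at 3.38% and 2.72% in shIno80 and 0.705% and 1.18% in shNT at day 4, at least 2.07-fold higher (adjusted p = 9.08e-04, limma), and at least 1.25-fold higher at day 6 (adjusted p = 9.93e-04), where 1 of the 2 shIno80 arrays was above background. This probe was above background on no shNT array and passed the filter only through shIno80 at day 4, so that the filter favoured the difference. The reported Hoxa4 probe was at 3.04% and 1.95% in shIno80 and 3.22% and 2.5% in shNT at day 4. The dimmer Hoxa3 probe was at 2.31% and 3.87% in shIno80 and 0.481% and 0.487% in shNT at day 6, at least 1.8-fold higher (adjusted p = 0.00968). It passed the filter only through these shIno80 arrays, which favoured the difference in the same way. The reported one was at 10.4% and 9.11% in shIno80 and 11.8% and 10.6% in shNT. The Hoxa4 probes lie at chr6:52153263-52153322 and chr6:52154062-52154121 and the Hoxa3 probes at chr6:52133000-52133059 and chr6:52133666-52133725 of mm7, the dimmer one given before the reported one.

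The second Hoxb9 probe was at 5.91% and 6.03% in shIno80 and 5.16% and 2.92% in shNT at day 6, a log2 difference of 0.62 ± 0.29 SE that missed the threshold (adjusted p = 0.112, limma). The arms did not overlap on either Hoxb9 probe at day 6. The second Hoxd9 probe lies in the homeobox at chr2:74542992-74543051 of mm7 and stayed below background on all arrays, with 1.71% and 2.29% in shIno80 and 0.436% and 0.435% in shNT at day 6. It is shown because the probe whose signal passed background in shIno80 lies outside it.
Second Hoxd9 probe: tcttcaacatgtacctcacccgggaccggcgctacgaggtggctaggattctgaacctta
The second Hoxb2 probe lies on the opposite strand to the reported one and was below background on all arrays.

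**Figure D4:**
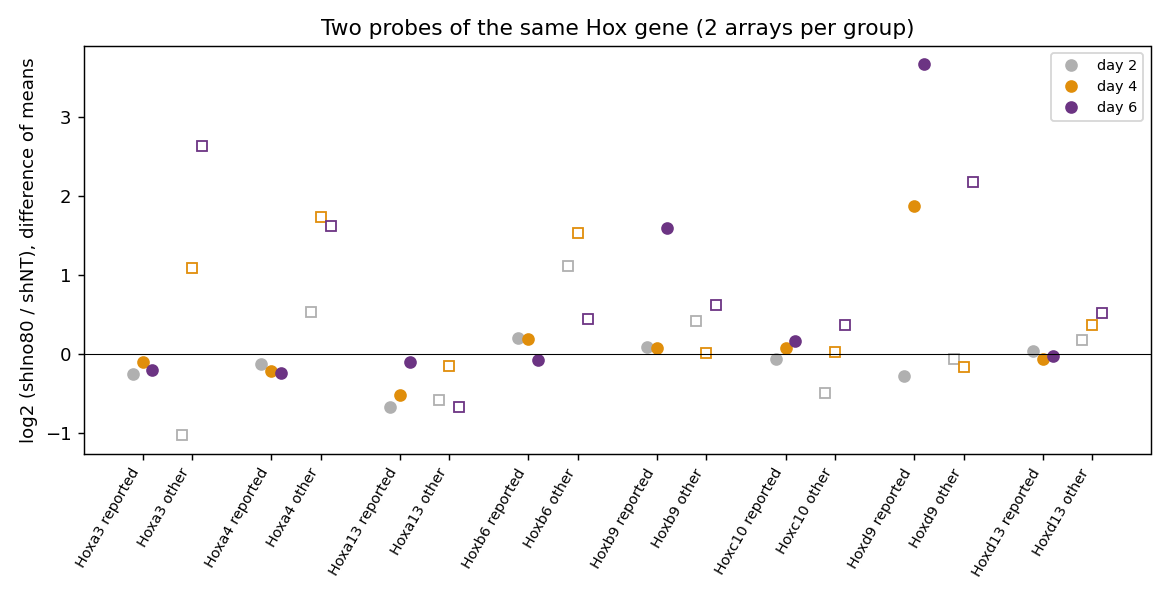
Log2 difference of shIno80 over shNT (vertical axis, difference of the means of 2 arrays) for the reported probe (filled circles) and the other probe (open squares) of 8 Hox genes at day 2, 4 and 6. For Hoxa3 and Hoxa4 the other probe lies above 1 at day 6 while the reported one lies near 0; for Hoxb9 and Hoxd9 both lie above 0 at day 6.

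Transcripts of genes whose proteins act with or on Hox genes differed in both directions. Among all tested genes, 20.9% were higher and 21.3% lower at day 4, and 21.0% higher and 29.5% lower at day 6. Of 9 TALE homeodomain proteins, which bind DNA together with Hox proteins, 4 were higher and 2 lower at day 4 and 6 higher and 1 lower at day 6. Meis1 (log2 difference 2.11 at day 6), Meis3 (1.48) and Pbx3 (1.04) were higher and Pknox1 (−0.85) lower. Of the 6 Cdx and ParaHox genes, 4 were higher and 2 lower at day 4 and 1 higher and 2 lower at day 6. At day 6 Cdx2, an activator of central Hox genes and also a trophoblast factor, was higher by 3.68 (adjusted p = 4.68e-04), Cdx1 lower (−0.82) and Gsx2 at least 3.98-fold lower (limma). Gsx2 was well above background only on the 2 shNT arrays of day 6. It passed the filter through these alone, so that the filter favoured the difference. Its day 4 call (−1.86) was between values below background in both arms. The median over the list at day 6 was 0.62 for the TALE genes and 0.04 for the Cdx and ParaHox genes.

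Of 12 tested genes that flank the clusters, none was higher at any day (limma), and 3, 7 and 7 were lower at days 2, 4 and 6, where 6.29%, 20.9% and 21.0% of all tested genes were higher and 6.21%, 21.3% and 29.5% lower. These were led at day 6 by Snx10 (−1.88) and Hibadh (−1.06) beside Hoxa, and by the even-skipped homologues Evx1 (−1.67) and Evx2 (−1.29) at the ends of Hoxa and Hoxd. Of the genes tested on the posterior flank of Hoxd, Evx2 was lower at day 6 and Lnpk was not called (−0.16, adjusted p = 0.227). The median of the flanking genes was −0.50 at day 6.

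Among 27 tested Polycomb genes, 5 were higher and 12 lower at day 4 and 6 higher and 15 lower at day 6, with a median of −0.55. Over all genes the shares were 20.9% higher and 21.3% lower at day 4 and 21.0% higher and 29.5% lower at day 6. Pcgf5 (1.79) and Cbx8 (1.52), subunits of repressive complex 1, were higher, and Mtf2 (−1.50), a partner of repressive complex 2, was lower. Of 10 trithorax-type activators and H3K27 demethylases, 5 were lower at day 4, and 2 were higher and 5 lower at day 6, with a median of −0.48. Wdr5 (−0.93), Dpy30 (−0.80), Rbbp5 (−0.68), subunits of the H3K4 methyltransferase complexes, and Kdm6a (−0.66), an H3K27 demethylase, were lower. Of 17 retinoic acid pathway genes, 4 were higher and 4 lower at day 4 and 7 higher and 6 lower at day 6, with a median of −0.04. The retinoid enzymes Rdh10 (1.81), Aldh1a3 (1.48) and Cyp26a1 (1.75), the last of which degrades retinoic acid, were higher and the receptor Rara (−1.77) was lower.

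Markers of other cells differed between the arms in both directions. Over all genes, 20.9% were higher and 21.3% lower at day 4, and 21.0% were higher and 29.5% lower at day 6. Of 11 tested trophoblast markers, 9 were higher at day 4, and 10 were higher and 1 lower at day 6, led by Esx1 (5.92), Krt7 (5.37), Hand1 (5.29) and Krt8 (4.77), while Elf5 was not testable. Their summed signal, in multiples of the 75th percentile, was 511 to 534 in shIno80 and 26 to 29.4 in shNT at day 6, and 151 to 163 in shIno80 and 13.3 to 14.2 in shNT at day 4. Of 17 fibroblast markers, which matter because fibroblasts used as feeders express Hox genes, 9 were higher and 4 lower at day 4 and 9 higher and 3 lower at day 6. Col1a1 (3.88), Dcn (3.82, with 1 of 2 shNT arrays above background) and S100a4 (3.73) were higher at day 6. Col6a1, below background in shNT, was at least 7.14-fold higher. It passed the filter only through the shIno80 arrays of day 6, so that the filter favoured the difference. The 3 lower at day 6 were Vim (−1.07), Thy1 (−0.68) and Pdgfra (−0.53). The summed signal of the list was lower in shIno80 at each day, at 18.8 to 19 in shIno80 and 22.5 to 23.8 in shNT at day 6. The brightest probes weigh most in such a sum. The median log2 difference over the list was 0.58 at day 4 and 1.19 at day 6. Of the fibroblast list, Postn was testable in no group, and at day 6 Prrx1 was below background on both shIno80 arrays and above it on 1 shNT array.

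All 11 pluripotency markers were lower at days 4 and 6, led at day 6 by Nanog (−2.72), Esrrb (−2.53), Klf4 (−1.98) and Pou5f1 (−1.85). Over all genes, 21.3% were lower at day 4, and 21.0% were higher and 29.5% lower at day 6. Of 8 streak and posterior mesoderm markers, 3 were higher and 2 lower at day 6, with Wnt3 (3.23), T (1.77, with 1 of 2 shNT arrays above background) and Eomes (1.20) higher and Mesp1 (−1.55, with 1 of 2 shIno80 arrays above background) lower. Of 8 neural markers, 4 were higher and 4 lower at day 6, with Zic1 at least 4.84-fold and Pax3 at least 1.96-fold higher, both below background in shNT, and Pax6 (−2.06) lower. Pax3 passed the filter only through the shIno80 arrays of day 6, so that the filter favoured its difference. The part of these cell types in the Hox differences was not tested. In RNA of whole cultures, more cells with a Hox transcript and more of it per cell cannot be told apart.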

How the data were processed

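The authors deposited scanner files of single-channel spot intensity, background-subtracted within each array by Feature Extraction software version 9.5.3.1, per the file headers. They also deposited a value table of log2 values, whose columns equal the scanner files' mean intensity times a factor per array (relative tolerance 1e-06); no source used here tells how that factor was set. Processed intensities were taken as log2 and scaled by subtracting the 75th percentile of each array. Non-uniform and outlier spots were dropped (125 probes, none of a Hox gene). The brightest kept probe stood for a gene, which left 28654 probes and 19183 genes. limma 3.58.1 in R 4.3.3 fitted 1 mean per group over all 12 arrays, with Benjamini-Hochberg adjustment over all genes and a threshold of 0.05, and was tested on simulated data. Names came from the files and RefSeq (GRCm38.p6).

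Some genes of the fit, 1 of the Hox clusters among them, are not reported here or counted among the members. The members, lists and tests were chosen with earlier results of these data known. Genes that passed on a day or over time in shIno80 are given on every array, the 4 others with the brightest probes by name, and from each list up to 4 passing genes with the largest day 6 difference. The 3 fibroblast markers lower at day 6 are given as well. Second probes and printed sequences were chosen after their values were seen. Replicate numbers were not taken to pair arrays (correlation of replicate differences between arms 0.30, 0.12 and 0.08 on days 2, 4 and 6). The series design calls the arrays of a group biological replicates without saying how cultures were made, so the spread behind the p-values may be technical. The number of arrays limits the precision, and slide position cannot be told apart from group.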

Additional observations from a re-analysis of the deposited data

Results flagged for a closer look

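The signed log2 difference of shIno80 over shNT itself differed between days, by a test of that difference in limma, for 8 Hox genes. From day 2 to day 4 it rose by 1.67 for Hoxa11, 2.56 for Hoxc9, 1.93 for Hoxd8 and 2.15 for Hoxd9 on the log2 scale. From day 4 to day 6 it rose by 1.51 for Hoxb9, 1.40 for Hoxd8, 1.81 for Hoxd9 and 2.14 for Hoxd10. From day 2 to day 6 it rose by 2.72 for Hoxa11, 1.10 for Hoxb3, 1.5 for Hoxb9, 1.22 for Hoxb13, 3.31 for Hoxc9, 3.33 for Hoxd8, 3.96 for Hoxd9 and 2.26 for Hoxd10. Both arms were below background for Hoxd8, Hoxd9 and Hoxd10 at day 2 and for Hoxd9 at day 4. In 1 arm this held for Hoxd8 (shNT, days 4 and 6), Hoxd9 and Hoxd10 (shNT, day 6) and Hoxa11 (shIno80 at day 2 and shNT at day 6), so the sizes for these genes depend on values at the detection limit. For Hoxc9 and Hoxb3 some of the shNT arrays were below background. In Hoxa11 the difference was negative at day 2 (−1.63) and near 0 at day 4 (0.04), so the arms came together over these days. For Hoxb9 and Hoxa11 the rise from day 2 to day 6 went with a fall in shNT (log2 changes −1.69 and −0.89, adjusted p = 7.10e-04 and 0.0274, limma). The shNT changes of Hoxd10 (−0.98, adjusted p = 0.0685) and Hoxb13 (−0.55, adjusted p = 0.176) missed the threshold. For Hoxb3, Hoxc9, Hoxd8 and Hoxd9 the shNT change lay between −0.14 and 0.00. In shIno80, Hoxa11 (1.83) and Hoxd10 (1.28) rose, and Hoxb13 (0.67, adjusted p = 0.0659) missed the threshold. The shNT array of day 6 with the fewest Hox probes above background (15) enters every comparison with day 6.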

How the results depend on the processing

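Numbers of Hox genes called (2, 6 and 9 on days 2, 4 and 6) came out as 2, 6 and 9 with median scaling, 2, 7 and 11 with quantile normalization, 0, 5 and 10 with the deposited value table, and 0, 6 and 7 with local background subtracted and 50 added, an alternative chosen after seeing the data. At day 2, 1 was called with an intensity trend and 0 with the day's arrays alone. Leaving out 1 array at a time gave 1 to 4, 4 to 7 and 8 to 11 genes; for the change of the difference 3 to 6 (day 2 to 4), 1 to 4 (day 4 to 6) and 6 to 10 (day 2 to 6); and over time 7 to 10 in shIno80 and 2 to 8 in shNT. The day 2 count was 4 without shNT day 2 replicate 1 and 1 without replicate 2, and the shNT count over time (4) was 8 without shNT day 6 replicate 1 and 2 without replicate 2. The day 4 to 6 count was 1 without any 1 of shNT day 4 replicates 1 and 2, shIno80 day 4 replicate 1 and shIno80 day 6 replicates 1 and 2, 2 without shIno80 day 4 replicate 2 or shNT day 6 replicate 2, and 1 where dim probes were kept; the day 2 to 4 count was 1 with the value table. With only probes above background on all 12 arrays, 12 Hox genes were tested and 0, 0 and 2 called (1, 1 and 2 at an unadjusted p under 0.05, limma). Fitting replicate number as a block gave 2, 7 and 10 genes and a day 4 to 6 count of 2. With normexp background correction, whose fit left the lowest percentile of signal between 60 and 1010 on different arrays, 0 genes were called on each day (0, 0 and 0 at an unadjusted p under 0.05, limma), 0 for change between days and 0 over time in either arm. Hoxd8 at day 2 then turned to −1.55, and at day 4 Hoxb3 to −0.14, Hoxc13 to −0.03, Hoxd1 to −0.05, Hoxd8 to −0.06 and Hoxd9 to −0.20. With the scanner files as attached, 0 were called on each day and for change between days, 1 over time in shIno80 and 0 in shNT. Hoxa11 at day 2 then turned to 0.47, at day 4 Hoxb3 to −0.02 and Hoxc13 to −0.20, and at day 6 Hoxb3 to −0.03, Hoxb13 to −0.47, Hoxc9 to −0.25 and Hoxd10 to −0.36. The share of all genes called under each setting is not given beside these counts. Whether a count moved for Hox genes in particular therefore cannot be read from them. The cause was not tested beyond the construction of each alternative.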

Other observations

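Noncoding transcripts of the clusters have their own probes on the array, named from older symbols and chosen after their values were seen. Hoxaas2, an antisense transcript of the Hoxa cluster, was at 2.06% and 1.86% of the 75th percentile in shIno80 and 1.49% and 0.399% in shNT at day 6, with 1 of the 4 arrays well above background. Hoxaas3 was below background on all 12 arrays. Of the 2 probes of Hoxd3os1, 1 was well above background on a single shNT array at day 4, at 3.03%, and the other on none.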
